A study of Mus musculus with 29 samples.

Results

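The genes described here code for collagens, other matrix proteins, the enzymes that build and cut the matrix, markers of the hepatic stellate cell, and the ligands, receptors and targets of transforming growth factor beta (TGF-beta). They were picked by gene name from the table of read counts, and all 44 were found among its 55421 genes. They fall into 11 roles: fibrillar collagens, basement membrane collagens, collagens of beaded filaments and fibril surfaces, glycoproteins and elastic fibre, small leucine-rich proteoglycans, crosslinking enzymes, metalloproteinases with their inhibitors, stellate and contractile cell genes, TGF-beta ligands with their latency protein, TGF-beta receptors, and feedback and target genes of the pathway.

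The study asked whether HDM201, an inhibitor of MDM2 and so an activator of p53, changes gene expression in the aged mouse liver. RNA with poly(A) tails was sequenced from whole liver in 6 groups. Old mice were C57BL/6J, 20 months old if female and 24 months if male, and received HDM201 at 10 mg/kg by gavage every day for 14 days, or vehicle. Young mice of both sexes were 5 months old, C57BL6/N, and received vehicle. Age and substrain therefore cannot be told apart, and the old females were younger than the old males. Each library is 1 mouse, no mouse carried a transgene by its label, and the p-values measure the spread between these mice. Counts were available for 27 mice: 5 young vehicle, 4 old vehicle and 5 old HDM201 females, and 4 young vehicle, 4 old vehicle and 5 old HDM201 males. FPKM values were available for 29, and 2 of these, old vehicle male 1 and young vehicle male 5, have no counts. The depth per mouse was 16485900 to 23570458 counts.

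Stellate cells lie between hepatocytes and the sinusoidal endothelium, where they store retinyl esters. After injury they become contractile, express Acta2 and lay down type I and type III collagen. TGF-beta is secreted in a latent complex bound to the matrix, is released by proteases, thrombospondin or integrins, and signals through the receptors Tgfbr2 and Tgfbr1 to SMAD proteins, which induce matrix genes and the inhibitor Smad7. In bulk liver, fewer cells of a type and less RNA per cell cannot be told apart.

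The sequences below are the 250 bases upstream of the RefSeq start site (GRCm38.p6, the mm10 build) of 5 genes on which the comparisons turn: the ligand Tgfb1 (gene chr7:25687002-25705077, plus strand), its receptor Tgfbr2 (chr9:116084293-116175360, minus strand), the membrane metalloproteinase Mmp14 (chr14:54431612-54445364, plus strand), the collagen Col6a3 (chr1:90765923-90843971, minus strand) and the matricellular protein Postn (chr3:54361109-54391037, plus strand). Gene positions are those of GENCODE vM21. The windows lie outside the transcribed gene, at chr7:25686752-25687001, chr9:116175364-116175613, chr14:54431348-54431597, chr1:90843972-90844221 and chr3:54360857-54361106, and each is written 5′ to 3′ on the strand of its gene. Capitals mark every match, on either strand, to the TATA box (TATAAA), the CCAAT box, the GC box (GGGCGG) or the AP-1 site, which is spelled TGANTCA. They also mark CAGAC, the core of a SMAD-binding element.
Tgfb1: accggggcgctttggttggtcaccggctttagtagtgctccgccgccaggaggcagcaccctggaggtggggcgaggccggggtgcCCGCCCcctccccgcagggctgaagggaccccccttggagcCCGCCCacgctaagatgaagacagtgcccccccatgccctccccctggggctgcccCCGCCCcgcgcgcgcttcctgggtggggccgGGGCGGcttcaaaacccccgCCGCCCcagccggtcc
Tgfbr2: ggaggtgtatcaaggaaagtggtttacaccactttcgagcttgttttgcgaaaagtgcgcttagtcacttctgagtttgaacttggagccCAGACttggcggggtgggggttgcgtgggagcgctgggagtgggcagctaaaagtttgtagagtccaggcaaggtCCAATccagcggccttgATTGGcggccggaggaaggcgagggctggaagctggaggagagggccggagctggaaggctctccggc
Mmp14: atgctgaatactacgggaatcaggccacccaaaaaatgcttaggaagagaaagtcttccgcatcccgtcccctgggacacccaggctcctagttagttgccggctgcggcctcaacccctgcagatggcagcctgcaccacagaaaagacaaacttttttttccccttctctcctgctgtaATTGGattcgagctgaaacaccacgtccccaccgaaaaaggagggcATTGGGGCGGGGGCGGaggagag
Col6a3: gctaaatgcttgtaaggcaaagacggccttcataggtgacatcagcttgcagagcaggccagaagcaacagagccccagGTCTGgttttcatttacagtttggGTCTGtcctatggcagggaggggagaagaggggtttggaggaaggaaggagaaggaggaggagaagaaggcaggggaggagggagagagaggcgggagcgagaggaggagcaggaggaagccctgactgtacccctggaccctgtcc
Postn: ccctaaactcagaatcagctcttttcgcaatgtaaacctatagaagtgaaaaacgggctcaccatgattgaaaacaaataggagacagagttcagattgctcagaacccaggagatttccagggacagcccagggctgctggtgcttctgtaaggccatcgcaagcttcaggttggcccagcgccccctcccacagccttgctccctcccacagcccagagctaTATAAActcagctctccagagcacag
The Tgfb1 window held 5 GC boxes and no match to the other 4 motifs. The Mmp14 window held 2 GC boxes and 2 CCAAT boxes, of which 1 base was shared by neighbouring matches. The Tgfbr2 window held 2 CCAAT boxes and 1 CAGAC, the Col6a3 window 2 CAGAC, and the Postn window, the nearer of 2 to its annotated start, 1 TATA box. Windows were found for 28 of the 44 genes, 32 windows in all. GC boxes were in 59.4% of these 32, against 32.7% of all 32851 windows of the table, CAGAC in 50% against 42.2%, CCAAT in 34.4% against 33.8%, TATAAA in 15.6% against 12.4% and TGANTCA in 6.25% against 6.75%. A match describes the letters of the window and is not evidence of a bound site.

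Per unit of transcript length, these genes spanned a wide range of levels in the young vehicle females. Fibronectin, Fn1, which hepatocytes also secrete into plasma, was highest at 299 ± 30.6 FPKM (SD, n = 5). The glycoprotein gene Ecm1 followed at 126 ± 19.3 FPKM, and the proteoglycan genes Dcn and Bgn at 71.3 ± 10.5 and 42 ± 9.41 FPKM. Among the collagens Col14a1, a fibril-associated collagen, was at 11.4 ± 2.39 FPKM, Col3a1 at 5.35 ± 2.36, Col4a1 at 3.25 ± 0.627 and Col1a1 at 1.3 ± 0.506. The 3 ligands were unequal: Tgfb1 was at 3.84 ± 0.326 FPKM, and Tgfb2 and Tgfb3 at 0.268 ± 0.279 and 0.263 ± 0.0842. The lysyl oxidase gene Lox was lowest, at 0.031 ± 0.00795 FPKM.

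Lox and the inhibitor gene Timp1 were near the limit of the counts. Lox was read at 0 to 23 counts per mouse and passed the filter on low counts in no comparison. Timp1 was read at 0 to 40 counts per mouse and passed only in the comparisons that hold the old HDM201 males. A count of 0 allows up to 3 counts in that library, for counting error alone. The other 42 genes were tested in every comparison.

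The tissue labels were checked against marker genes before the comparisons. Summed over 8 hepatocyte markers such as albumin, the 27 mice held between 76595 and 158543 CPM (counts scaled to library size with edgeR's TMM factors). Summed over 16 markers of quiescent stellate cells they held between 126 and 280 CPM, with no marker at 0 in any whole group. Pancreas and adipose markers, which would show other tissue in the sample, summed to between 9.59 and 24.1 CPM. Of 7 such markers, Cpa1 was at 0 in every mouse of all 6 groups, and only 2 passed the filter on low counts in each comparison.

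2 mice stood apart in FPKM, and both lack counts. Old vehicle male 1 was higher than every other of the 29 mice in 30 of the 43 genes with a mean of at least 0.1 FPKM (69.8%), against 32% of 18119 genes. Its Col1a1 was 35.8 FPKM, against 1.3 to 4.46 in the other 4 old vehicle males, its Col3a1 was 81.3 FPKM, against 3.69 to 9.22, and its Tgfb1 was 20.1 FPKM, against 3.83 to 5.8. Fn1 and Ecm1, in contrast, were below the range of the other 4, at 204 and 48.9 FPKM. The same liver was high in macrophage markers (458 FPKM against 60.5 to 196), lymphocyte markers (212 FPKM against 11.5 to 19.5) and bile duct cell markers (226 FPKM against 32.3 to 49.6), and low in hepatocyte markers (41144 FPKM against 51323 to 75644). Also above the range of the other 4 were portal fibroblast (46.1 FPKM against 14.6 to 19.4), mesothelial (11.2 against 2.53 to 4.93) and stellate cell markers (107 against 47.8 to 91.6). Monocyte and dendritic cell markers were at 17.9 FPKM (2.68 to 6.89 in the others), smooth muscle markers at 68.1 (48.9 to 63.2) and sinusoidal endothelial markers at 81.7 (69.9 to 72.4). Pancreas and adipose markers were within the range. Young vehicle male 5 was higher than the other 4 young vehicle males in 21 of 43 genes (48.8%), against 24.9% of all genes. Its Mmp14 was 32.8 FPKM, against 8.43 to 14.4, its Col4a1 was 10.3 FPKM, against 1.86 to 3 and its Fn1 was 521 FPKM, against 226 to 311. Its macrophage markers were also high, at 240 FPKM (37.2 to 90.02 in the other 4). So were monocyte and dendritic cell (18.4 against 0.991 to 1.38) and bile duct cell markers (83.9 against 15.8 to 25.3). Lymphocyte (9.04 against 2.55 to 4.13), stellate (57.3 against 41.4 to 54) and sinusoidal endothelial markers (77.8 against 54.1 to 66.6) were also higher. Hepatocyte (46130 against 47271 to 53390) and portal fibroblast markers (9.55 against 13.8 to 16.8) were lower. The count-based results below contain neither mouse.

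**Figure D1:**
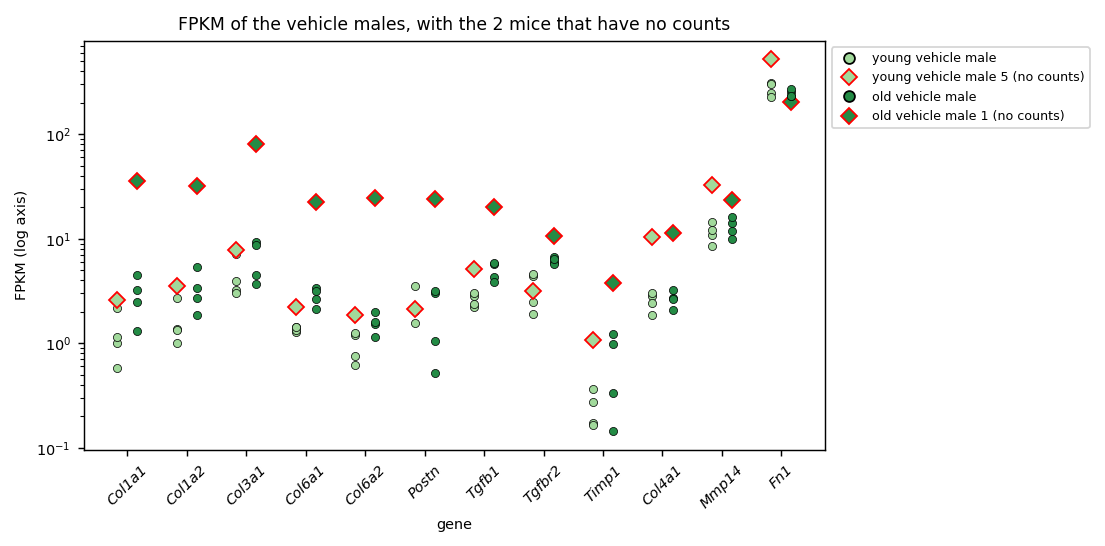
FPKM (log axis) of 12 genes in the 5 young and 5 old vehicle males, 1 point per mouse, with diamonds for the 2 mice that have no counts. Old vehicle male 1 lay at 35.8 FPKM for Col1a1 and 81.3 for Col3a1, above each of the other old males, while its Fn1 (204 FPKM) was lowest of its group.

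A gene was called changed where the false discovery rate of edgeR's quasi-likelihood test, adjusted over all genes tested (FDR), was under 0.05, and fold changes are of CPM on the log2 scale. With age, 15 of 42 genes were called in females, where 31.8% of all genes tested were called, and 7 of 42 in males, where 3.69% were called. Between the sexes, 9 of 42 were called in young mice, all higher in females, where 10.5% of all genes were called. With HDM201, 0 of 42 were called in old females (5.25% of all genes) and 0 of 43 in old males (0.00709% of all genes).

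**Figure D2:**
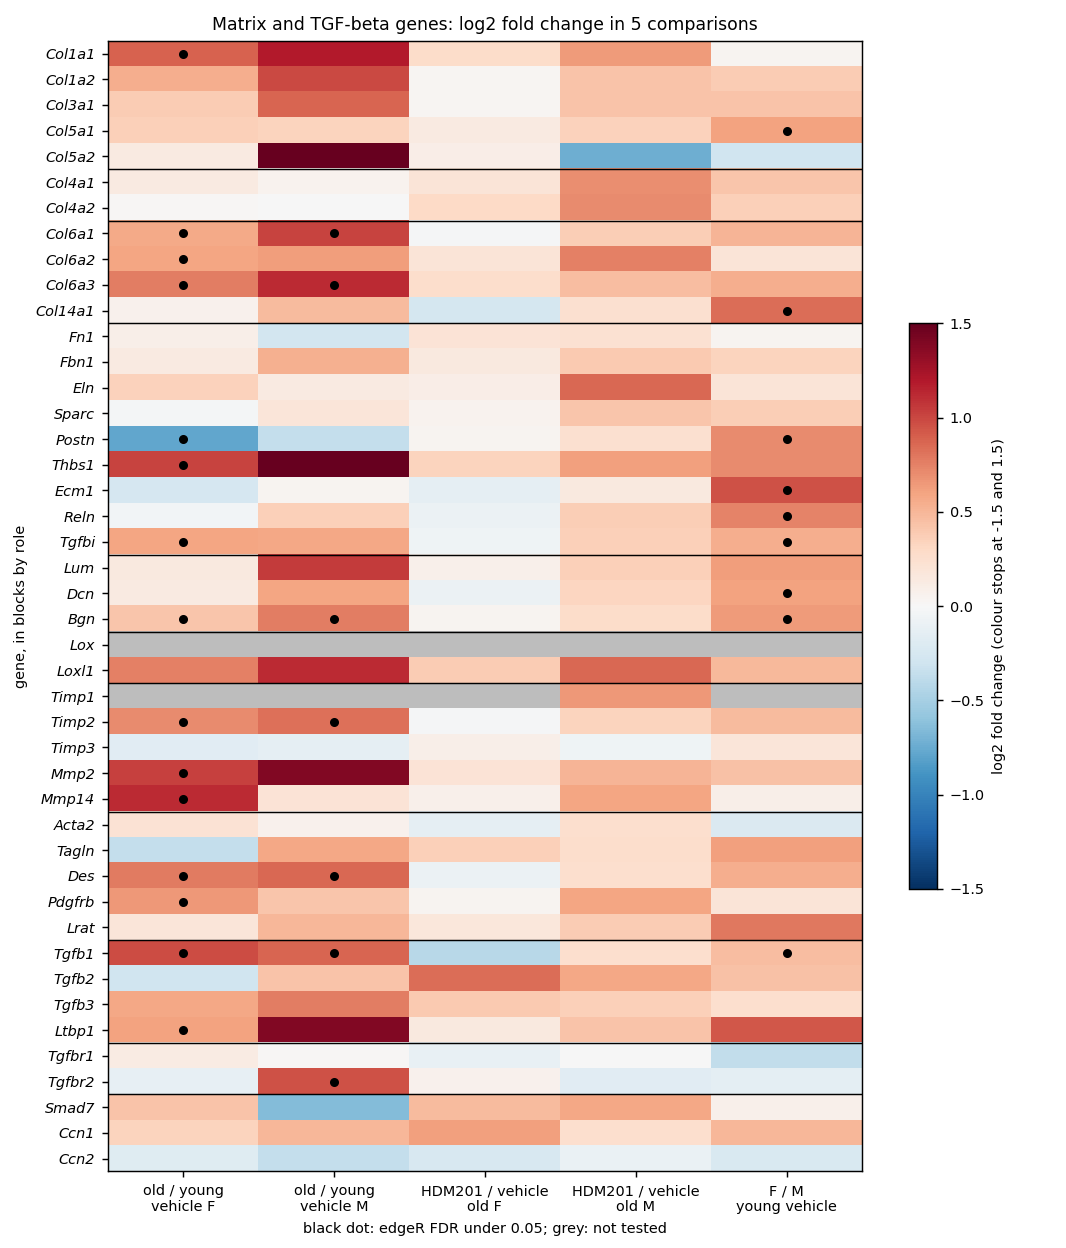
Log2 fold change of the 44 genes (rows, in blocks by role) in the 5 comparisons between groups (columns). Black dots mark calls at an edgeR FDR under 0.05, grey cells were not tested, and colours stop at -1.5 and 1.5. Calls are in the age and sex columns, 15, 7 and 9 of them, and there are none in the HDM201 columns.

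Old vehicle females differed from young vehicle females in 15 of 42 matrix and TGF-beta genes (35.7%), near the share of all genes called (31.8%). 14 were higher in old females: the collagen genes Col1a1, Col6a1, Col6a2 and Col6a3, the glycoprotein genes Thbs1 and Tgfbi, the proteoglycan gene Bgn, the protease and inhibitor genes Mmp2, Mmp14 and Timp2, the stellate cell genes Des and Pdgfrb, and Tgfb1 with its latency protein Ltbp1. 1, Postn, was lower. Across all genes the calls were nearly even, with 16.8% higher and 15% lower. At an unadjusted p under 0.05 there were 18 of 42 (42.9%), against 42.6% of all genes. The median log2 fold change of the 42 genes was 0.34, against 0.01 over all genes, and 33 of 42 were above 0, against 51%. In 8 of 42 genes the groups did not overlap in CPM, against 25.8% of all genes. Of those, 7 were higher in old females (12.5% of all genes) and 1 lower (13.3%).

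Of the ligands, Tgfb1 was called. It was read at 9.59, 9.51, 7.69, 9.88 and 9.19 CPM in the 5 young females and at 14, 21.9, 15.2 and 20.2 CPM in the 4 old females, so that every old female was above every young one (log2 fold change 0.98, SE 0.14, FDR 0.000387). Ltbp1, which holds the latent ligand in the matrix, rose from 2.98 ± 0.517 to 4.49 ± 0.914 CPM (SD, n = 5 and 4; log2 fold change 0.61, FDR 0.0217), and its call was lost without old vehicle female 1 or 2 (FDR up to 0.0801). Tgfb3 was read at 0.635, 0.976, 0.832, 1.26 and 1.52 CPM in young and 1.91, 1.75, 1.38 and 1.18 CPM in old females, and the groups overlapped (log2 fold change 0.58, SE 0.27, FDR 0.128). Tgfb2, the lowest of the ligands, was read at 0.445, 0.874, 0.832, 0.746 and 0.442 CPM in young and 0.901, 0.358, 0.221 and 0.66 CPM in old females (log2 fold change -0.30, SE 0.40, FDR 0.597). The receptors did not pass. Tgfbr2 was read at 16.7, 30.5, 15.4, 17.5 and 23.7 CPM in young and 15.8, 21, 19.4 and 18.8 CPM in old females (log2 fold change -0.13, SE 0.18, FDR 0.625), and Tgfbr1 had a log2 fold change of 0.12.

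Of the pathway's feedback and target genes, none of 3 was called. Smad7, which blocks the receptors, was read at 36.7, 36.5, 27.2, 22.9 and 21.7 CPM in young and 33.7, 46.1, 45.6 and 27.9 CPM in old females (log2 fold change 0.42, SE 0.19, FDR 0.0997). Ccn1 was read at 10.9, 6.32, 10.7, 8.38 and 8.94 and 15.9, 9.09, 10.1 and 9.99 CPM (log2 fold change 0.34, SE 0.19, FDR 0.188), with old vehicle female 1 highest at 15.9 CPM. Ccn2, connective tissue growth factor, had a log2 fold change -0.18, SE 0.19, FDR 0.505. Tgfbi, a secreted protein named for its induction by TGF-beta, did pass. Its levels were 38.8, 41, 35.9, 35.4 and 37.9 CPM in young and 57.3, 61.5, 47.5 and 57.8 CPM in old females, without overlap (log2 fold change 0.59, SE 0.08, FDR 0.000407).

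Col6a1, Col6a2 and Col6a3, the chains of type VI collagen, were each higher in old females, with log2 fold changes of 0.57 (SE 0.16, FDR 0.0143), 0.59 (FDR 0.0174) and 0.77 (SE 0.19, FDR 0.00802). Without old vehicle female 2 the FDR of Col6a1 was 0.0547. Of 5 fibrillar collagen genes edgeR called only Col1a1. Its levels were 3.37, 10.9, 9.09, 12.9 and 10.8 CPM in young and 24.8, 16.4, 15.4 and 12.5 CPM in old females, where young female 1 was lowest by far and young female 4 lay above the lowest old mouse (log2 fold change 0.89, SE 0.29, FDR 0.0316). The call was lost without old vehicle female 1 (FDR 0.114), old vehicle female 2 or young vehicle female 3. It was also lost with all 6 groups in 1 fit, with a replicate block and with limma on log2(FPKM + 0.1). Col1a2, the partner chain of type I collagen, missed the threshold in edgeR (log2 fold change 0.55, SE 0.20, FDR 0.0524). It was read at 8.45, 15.4, 13, 15.8 and 16.1 CPM in young and 24.7, 21.9, 20.1 and 12.9 CPM in old females. DESeq2 did the reverse, and called Col1a2 but not Col1a1. Col3a1 was read at 11.2, 31.6, 26.7, 27.8 and 26.3 CPM in young and 39.9, 35.1, 29.4 and 23.6 CPM in old females (log2 fold change 0.39, SE 0.23, FDR 0.226). The basement membrane gene Col4a1 overlapped between the groups, at 14, 28.3, 25.3, 25.1 and 19.1 and 26.6, 25.2, 22.8 and 22.2 CPM (log2 fold change 0.13, SE 0.16, FDR 0.575).

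The smallest FDR was that of Mmp14, a membrane-bound metalloproteinase that activates the proenzyme of Mmp2. Its levels were 34.2, 32.1, 46.7, 46.1 and 43 CPM in young and at 86.6, 86.1, 71.9 and 102 CPM in old females (log2 fold change 1.12, SE 0.13, FDR 0.000105). Every old female was above every young female, and the call held without any single mouse (log2 fold change 1.03 to 1.20). Its substrate Mmp2 moved likewise, from 2.54 ± 0.745 to 5.12 ± 1.17 CPM (log2 fold change 1.02, SE 0.22, FDR 0.00416), and so did Timp2, which binds both, from 15.1 ± 3.36 to 24.5 ± 3.94 CPM (log2 fold change 0.71, SE 0.16, FDR 0.00491). The inhibitor gene Timp3 had a log2 fold change of -0.17 and was not called.

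Postn, a matricellular protein of healing tissue, went the opposite way. It was read at 9.78, 14.7, 9.93, 10.2 and 9.09 CPM in young females and at 6.25, 6.85, 6.09 and 5.52 CPM in old females (log2 fold change -0.78, SE 0.15, FDR 0.00218), with young female 2 highest and every old female below every young one. Thbs1, thrombospondin 1, was low in both groups, at 1.06 ± 0.41 and 2.15 ± 0.946 CPM (log2 fold change 1.02, FDR 0.0362), and lost its call without old vehicle female 3 or 4 or young vehicle female 1, 4 or 5 (FDR up to 0.148). Bgn, biglycan, rose from 100.2 ± 17.4 to 132 ± 11.3 CPM (log2 fold change 0.42, SE 0.12, FDR 0.0167), a call lost without old vehicle female 1 or 2 (FDR up to 0.0531). Ecm1 was read at 186, 232, 173, 231 and 196 CPM in young and 159, 218, 165 and 131 CPM in old females, a log2 fold change of -0.25 that was not called.

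2 of 5 stellate and contractile cell genes were called with age in females, where 31.8% of all genes were. The intermediate filament gene Des rose from 4.5 ± 1.19 to 7.61 ± 1.06 CPM (log2 fold change 0.77, SE 0.18, FDR 0.00557), and the growth factor receptor gene Pdgfrb from 8.79 ± 1.42 to 13.7 ± 2.63 CPM (log2 fold change 0.66, SE 0.15, FDR 0.00557). Acta2, the actin that marks contractile stellate cells and smooth muscle, was not called (log2 fold change 0.22, SE 0.30, FDR 0.618) and ranged over 1.4 to 2.81 CPM in young and 1.59 to 4.09 CPM in old females. Lrat, the enzyme that esterifies retinol in quiescent cells, had a log2 fold change of 0.18. Macrophage markers moved with these genes: 8 of 9 were called higher in old females, and their sum was 208 to 315 CPM in young and 319 to 626 CPM in old females. Of 15 quiescent stellate cell markers tested 6 were called higher and 1 lower, and their sums overlapped at 172 to 236 and 185 to 246 CPM. Portal fibroblast markers, from another matrix-producing cell, summed to 37.5 to 52.9 CPM in young and 54.2 to 62.1 CPM in old females, without overlap. Sums also separated the ages for bile duct cells (42.9 to 49.7 and 50.0 to 71.8 CPM), monocytes and dendritic cells (2.98 to 3.81 and 10.2 to 16.4 CPM) and lymphocytes (4.73 to 6.19 and 19.3 to 30.0 CPM), and pancreas and adipose markers were lower in old females (19.6 to 23.2 and 9.59 to 10.5 CPM). The part of any of them in the differences of the matrix genes was not tested.

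**Figure D3:**
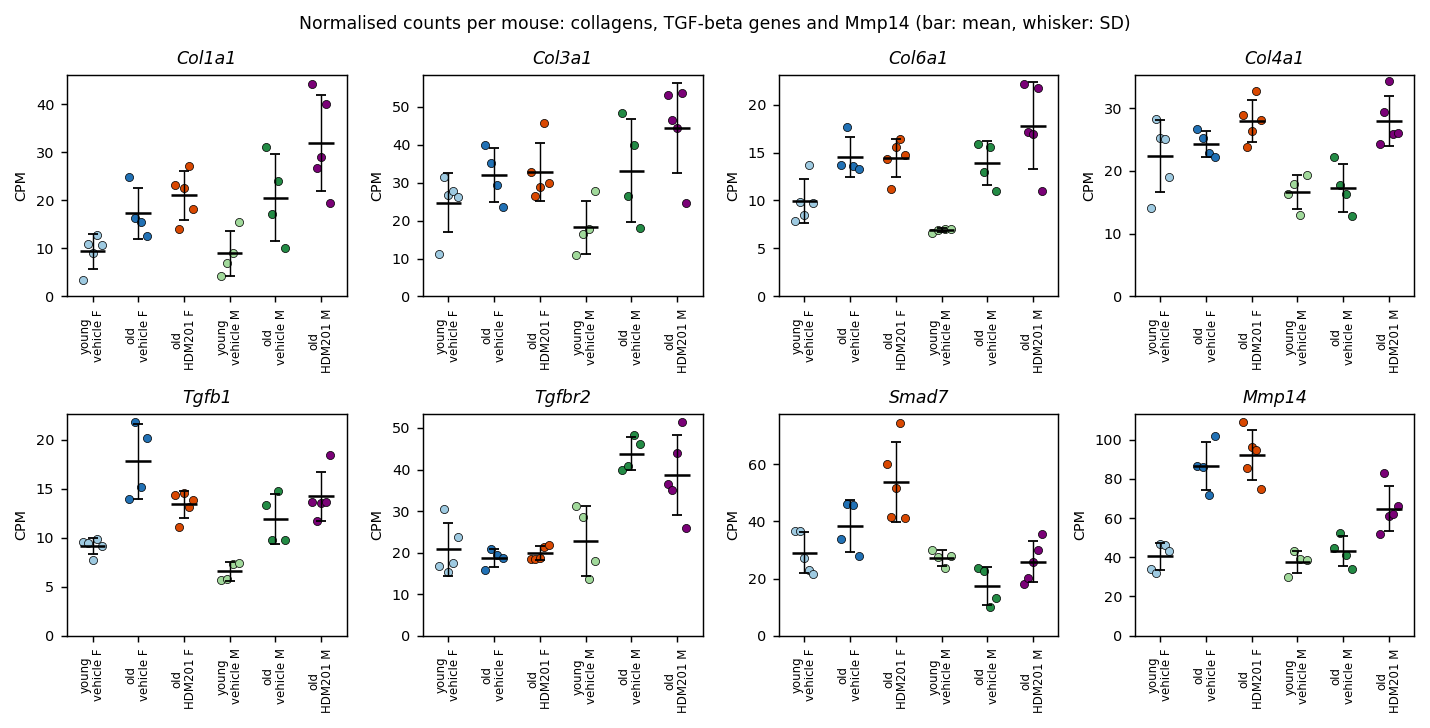
CPM per mouse of 8 genes in the 6 groups, with the mean (bar) and SD (whisker). Old females were all above young females for Mmp14 and Tgfb1, old males were all above young males for Col6a1, Tgfb1 and Tgfbr2, and HDM201 and vehicle males did not overlap for Col4a1.

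In males, 7 genes were called with age and all were higher in the old mice (2.76% of all genes were called higher): Col6a1, Col6a3, Bgn, Timp2, Des, Tgfb1 and Tgfbr2. The first 6 were also called in females, and those 2 comparisons share no mice. The median log2 fold change of the 42 genes was 0.56, against -0.01 over all genes, 36 of 42 were above 0, against 47.7%, and in 14 the groups did not overlap, against 13.5%. In 13 of these the old males were higher (7.33% of all genes) and in 1 lower (6.22%). At an unadjusted p under 0.05 there were 24 of 42, against 21.9% of all genes. The number of calls depended on the fit, and DESeq2 called 15 of the 43 genes it tested. Leaving out 1 mouse gave 4 without old vehicle male 2 or young vehicle male 4 and 2 without young vehicle male 2. It gave 1 without old vehicle male 4 or young vehicle male 3, and 5 to 10 otherwise. With both mice that lack counts included, limma on FPKM called 0, and without them 2, Col6a1 and Bgn.

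Col6a1 had the smallest FDR of these calls. It was read at 6.62, 6.88, 7.07 and 7.04 CPM in the 4 young males and at 15.9, 13, 15.6 and 11 CPM in the 4 old males (log2 fold change 1.02, SE 0.14, FDR 0.00596), and it kept its call without any single mouse. Col6a3 rose from 5.97 ± 1.16 to 12.9 ± 4.1 CPM (SD, n = 4 and 4; log2 fold change 1.12, SE 0.22, FDR 0.0281), a call lost without old vehicle male 4 or young vehicle male 1, 2 or 3 (FDR up to 0.0777). Type I and III collagens had large but scattered differences. Col1a1 was read at 4.28, 7.05, 9.13 and 15.4 CPM in young and 31.1, 17.1, 24 and 10.1 CPM in old males (log2 fold change 1.19, SE 0.40, FDR 0.119). Col1a2 was read at 6.62, 8.53, 9.19 and 17.3 and 32.3, 16.3, 21.7 and 12.6 CPM (log2 fold change 0.99, SE 0.34, FDR 0.125), and Col3a1 at 11, 16.4, 17.7 and 27.7 and 48.3, 26.6, 39.9 and 18 CPM (log2 fold change 0.87, SE 0.33, FDR 0.158). In each of the 3, old vehicle male 2 was highest of its group and old vehicle male 5 lowest, below young vehicle male 4. With old vehicle male 1 and young vehicle male 5 added, in FPKM, the log2 fold changes were 1.29, 1.14 and 1.03 on the log2(FPKM + 1) scale, and 0.77, 0.71 and 0.48 without them. Col4a1 was at 16.3, 17.9, 13 and 19.3 CPM in young and 22.1, 17.8, 16.3 and 12.8 CPM in old males (log2 fold change 0.06, SE 0.17, FDR 0.881).

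Tgfb1 was again separated between the ages. Young males were at 5.72, 5.8, 7.34 and 7.45 CPM and old males at 13.4, 9.8, 14.8 and 9.82 CPM (log2 fold change 0.87, SE 0.18, FDR 0.0294). The call was lost without any mouse other than old vehicle males 3 and 5 (FDR up to 0.0903, without old vehicle male 4), and the log2 fold change stayed at 0.74 to 0.96. Tgfbr2, the type II receptor, was read at 31.3, 28.5, 13.6 and 17.9 CPM in young and 39.9, 41, 48.3 and 46.1 CPM in old males (log2 fold change 0.95, SE 0.23, FDR 0.0499). The old males lay close together and all above the young, and the call was lost when any mouse except young vehicle male 1 was left out (FDR 0.0324 to 0.138 over the 8 fits) and with edgeR's RLE factors. Tgfb3 (log2 fold change 0.77, SE 0.38, FDR 0.276) and Tgfb2 (log2 fold change 0.42, SE 0.39, FDR 0.574) were not called, at 0.482, 0.455, 1.41 and 1.09 against 1.1, 1.86, 1.61 and 1.38 CPM and 0.361, 0.284, 0.435 and 0.817 against 0.628, 0.87, 0.632 and 0.478 CPM. Ltbp1 had a log2 fold change of 1.39 and an FDR of 0.0519.

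Smad7 went the other way in males, without a call. The levels were 30.1, 27.5, 23.6 and 27.7 CPM in young and 23.6, 22.5, 10.2 and 13.1 CPM in old males, with no overlap by a narrow margin (log2 fold change -0.65, SE 0.24, FDR 0.151). Ccn1 (log2 fold change 0.50, SE 0.25, FDR 0.271) was read at 3.79, 8.87, 6.79 and 5.86 and 6.7, 11.6, 8.67 and 8.7 CPM, and Ccn2 had a log2 fold change -0.36, SE 0.42, FDR 0.662. Tgfbi was read at 24.6, 27.2, 26.6 and 24.4 CPM in young and 47.5, 32.1, 44.6 and 28.5 CPM in old males, every old male being above every young one, and it missed the threshold (log2 fold change 0.58, SE 0.16, FDR 0.0712).

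Among the remaining called genes, Timp2 rose from 10.7 ± 2.05 to 19 ± 2.52 CPM (log2 fold change 0.83, SE 0.15, FDR 0.0213), Bgn from 63.9 ± 8.06 to 108 ± 19.1 CPM (log2 fold change 0.76, SE 0.14, FDR 0.0221) and Des from 3.06 ± 0.465 to 5.54 ± 0.81 CPM (log2 fold change 0.86, SE 0.18, FDR 0.0342). Without old vehicle male 4 or young vehicle male 3 all 3 calls were lost, Bgn also without young vehicle male 2, and Des without any mouse except old vehicle male 5 and young vehicle male 1 (FDR up to 0.0606 for Timp2, 0.073 for Bgn and 0.096 for Des). Loxl1, a crosslinking enzyme, was near the threshold (log2 fold change 1.12, SE 0.28, FDR 0.0549), as were Dcn (log2 fold change 0.59, SE 0.16, FDR 0.0665) and Mmp2 (log2 fold change 1.39, SE 0.38, FDR 0.0687). Mmp14 was read at 30.0, 43.3, 38.9 and 38.4 CPM in young and 44.7, 52.6, 41.3 and 33.9 CPM in old males, a log2 fold change of 0.20 with an FDR of 0.457. Postn was read at 6.08, 5.69, 4.78 and 9.26 and 8.11, 3.54, 6.49 and 2.02 CPM and Ecm1 at 128, 89, 81.3 and 119 and 129, 107, 106 and 85 CPM, with overlap in both. Acta2 ranged from 0.361 to 4.5 CPM in young and from 1.38 to 3.82 CPM in old males (log2 fold change 0.06, SE 0.58, FDR 0.964). Macrophage markers summed to 89.5 to 203 CPM in young and 127 to 406 CPM in old males, with 1 of 9 called, and stellate cell markers to 127 to 164 and 126 to 258 CPM, with 1 of 15 tested called. Other sums separated the ages without overlap. Bile duct cell markers were at 26.2 to 42.7 CPM in young and 55.1 to 74.8 CPM in old males, monocyte and dendritic cell markers at 1.51 to 2.95 and 6.09 to 15.9 CPM, lymphocyte markers at 3.31 to 4.89 and 15.8 to 27.3 CPM, and hepatocyte markers at 93681 to 105806 and 109695 to 158543 CPM. Whether any of them bear on the matrix genes was not tested.

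The difference between the sexes in the change with age was tested as an interaction. Mmp14 was the 1 gene of 42 called, against 3.92% of all genes: its change was larger in females by 0.93 on the log2 scale (SE 0.21, FDR 0.0233), 1.12 in females and 0.20 in males. The call was lost without old vehicle female 4 (FDR 0.0569) and without old vehicle male 4. In FPKM it was absent with every vehicle mouse included and present without the 2 that lack counts, of which young vehicle male 5 was high in Mmp14. The next genes were Tgfbr2, with a difference of -1.07 (FDR 0.0624), and Smad7, with a difference of 1.08 (FDR 0.0662). Both were called by DESeq2 and with no filter on low counts. The median difference of the 42 genes was -0.29, and 13 of 42 differences were above 0, against 50.1%. On the log2(FPKM + 1) scale the median was -0.32 with the 2 mice that lack counts and -0.017 without them.

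In young vehicle mice, 9 genes were called between the sexes and all were higher in females (5.63% of all genes were called higher in females): Col5a1, Col14a1, Postn, Ecm1, Reln, Tgfbi, Dcn, Bgn and Tgfb1. The median log2 fold change of the 42 genes was 0.44 against 0.00 over all genes, 37 of 42 were above 0, against 49.5%, and in 13 the sexes did not overlap, against 12.8%. Females were higher in 12 of these (7% of all genes) and lower in 1 (5.79%). In FPKM, limma called 5 genes with young vehicle male 5 included and 7 without it, Tgfbi and Tgfb1 being gained. The young females and young males here are the same mice that served as the reference for age.

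Glycoproteins and proteoglycans made up 6 of the 9 calls. Ecm1 was read at 186, 232, 173, 231 and 196 CPM in young females and 128, 89, 81.3 and 119 CPM in young males (log2 fold change 0.95, SE 0.15, FDR 0.00223). Tgfbi, at 38.8, 41, 35.9, 35.4 and 37.9 against 24.6, 27.2, 26.6 and 24.4 CPM, had the smallest FDR (log2 fold change 0.54, SE 0.08, FDR 0.00161), and both genes separated the sexes without overlap. Reln, reelin, which stellate cells express in liver, was at 44.3 ± 7.42 CPM in females and 26.2 ± 4.7 CPM in males (SD, n = 5 and 4; log2 fold change 0.74, SE 0.15, FDR 0.00834). Dcn, decorin, which binds TGF-beta, was at 136 ± 18.5 and 88.8 ± 9.86 CPM (log2 fold change 0.60, SE 0.12, FDR 0.00927), and Bgn at 100.2 ± 17.4 and 63.9 ± 8.06 CPM (log2 fold change 0.63, SE 0.13, FDR 0.0111). Postn overlapped between the sexes, 9.78, 14.7, 9.93, 10.2 and 9.09 CPM in females and 6.08, 5.69, 4.78 and 9.26 CPM in males (log2 fold change 0.71, SE 0.20, FDR 0.0428), and its call was lost without any mouse except young vehicle male 4 (FDR up to 0.105).

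Among the collagens, Col14a1 was at 50.7 ± 11.3 CPM in females and 28 ± 5.21 CPM in males (log2 fold change 0.84, SE 0.17, FDR 0.0093), and Col5a1, a type V chain, at 10.4 ± 1.54 and 6.77 ± 0.635 CPM (log2 fold change 0.60, SE 0.14, FDR 0.0168). The chains of type I and III collagen were not called: Col1a1 had a log2 fold change of 0.05 (SE 0.37, FDR 0.951), Col1a2 of 0.38 (SE 0.26, FDR 0.381) and Col3a1 of 0.42 (SE 0.29, FDR 0.365). For Col4a1 the value was 0.41 (SE 0.19, FDR 0.177), and it turned to -0.073 on the log2(FPKM + 1) scale once young vehicle male 5 was included. Tgfb1 was called (log2 fold change 0.46, SE 0.13, FDR 0.0451), with every young female above every young male, though the call was lost without any mouse except young vehicle female 3 (FDR up to 0.0985). The other ligands, Tgfb2 with 0.44 (SE 0.38, FDR 0.483) and Tgfb3 with 0.26 (SE 0.38, FDR 0.704), were not, nor were Tgfbr2 with -0.15 (SE 0.25, FDR 0.75), Smad7 with 0.08 (SE 0.16, FDR 0.804), Ccn1 with 0.50 (SE 0.23, FDR 0.176), Ccn2 with -0.23 (SE 0.32, FDR 0.684) or Acta2 with -0.22 (SE 0.47, FDR 0.811).

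Stellate cell markers moved with the sexes as well. 7 of 15 tested were called higher in young females, and their sum was 172 to 236 CPM in females and 127 to 164 CPM in males. Macrophage markers were called higher in females in 6 of 9, summing to 208 to 315 against 89.5 to 203 CPM. Sinusoidal endothelial markers summed to 241 to 307 CPM in females and 164 to 213 CPM in males, while hepatocyte markers overlapped at 103087 to 110764 and 93681 to 105806 CPM. Bile duct cell markers (42.9 to 49.7 and 26.2 to 42.7 CPM) and monocyte and dendritic cell markers (2.98 to 3.81 and 1.51 to 2.95 CPM) were also apart, by narrow margins. Their part in the sex difference of the matrix genes was not tested.

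**Figure D4:**
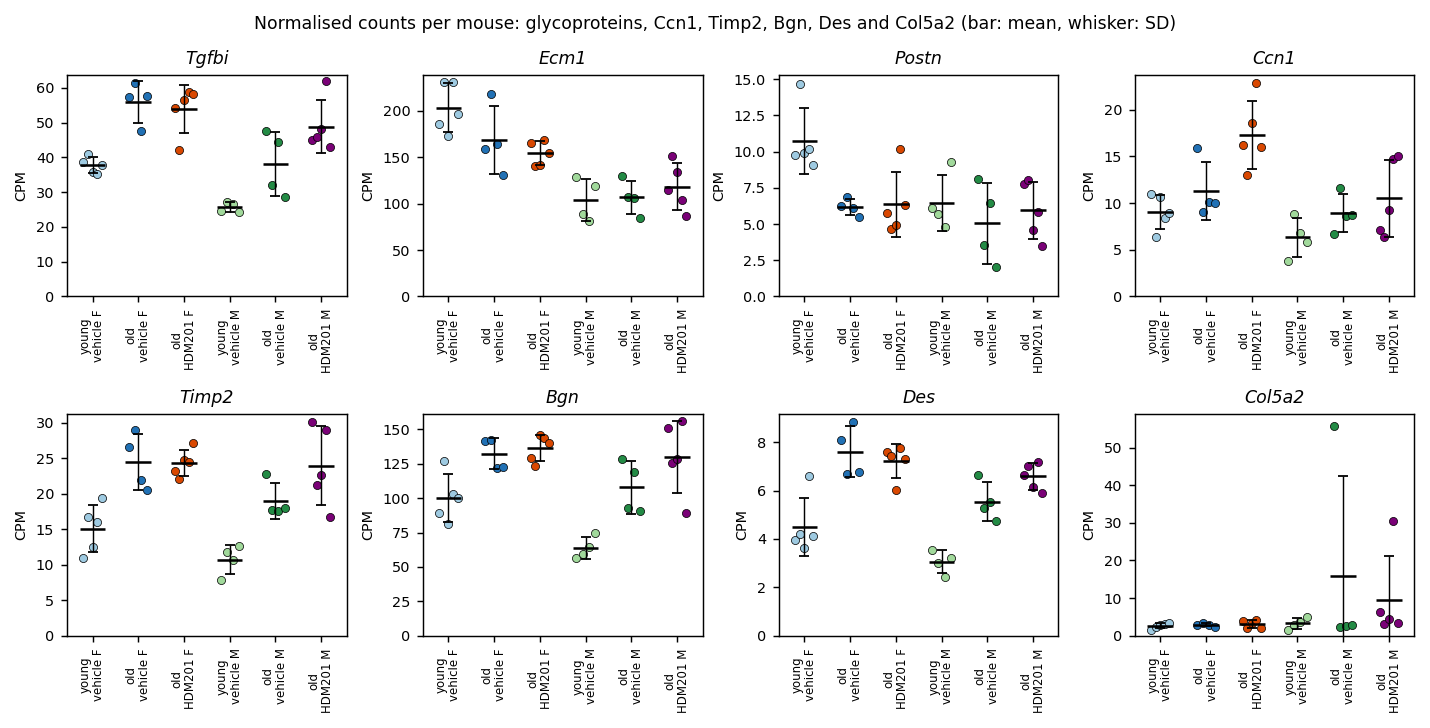
CPM per mouse of 8 further genes in the 6 groups, with the mean (bar) and SD (whisker). Young females lay above young males for Tgfbi and Ecm1, old vehicle females lay below young females for Postn, and Col5a2 was at 55.7 CPM in 1 old vehicle male and 30.5 CPM in 1 old HDM201 male.

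With HDM201, edgeR called none of the 42 genes in old females. At an unadjusted p under 0.05 there were 5, Ccn1, Tgfb1, Fn1, Smad7 and Tgfb2, against 22.5% of all genes, and DESeq2 called 2, Fn1 and Ccn1. The groups overlapped in CPM in every one of the 42 genes, against 9.93% of all genes without overlap. The median log2 fold change was 0.08, and 30 of 42 were above 0, against 50.2%.

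Ccn1, a matricellular protein that is an immediate-early target of several signals, came nearest to a call. It was read at 15.9, 9.09, 10.1 and 9.99 CPM in the 4 old vehicle females and 16.2, 13, 18.5, 22.8 and 16 CPM in the 5 old HDM201 females (log2 fold change 0.62, SE 0.18, FDR 0.0734). Old vehicle female 1 lay within the range of the treated mice, and Ccn1 was called when that mouse or HDM201 female 2 was left out. Tgfb1 differed downward, at 14.4, 11.1, 14.6, 13.2 and 13.9 CPM in HDM201 females against the old vehicle values given above (log2 fold change -0.42, SE 0.13, FDR 0.0923), and its treated mice all lay below 3 of the 4 vehicle mice. Tgfb2 was at 0.885, 0.709, 1.18, 1.03 and 0.991 CPM in HDM201 females (log2 fold change 0.84, SE 0.35, FDR 0.178) and Tgfb3 at 1.87, 2.18, 2.29, 2.27 and 1.65 CPM (log2 fold change 0.39, SE 0.20, FDR 0.271). Smad7 was at 59.9, 41.3, 51.5, 74.4 and 41.2 CPM (log2 fold change 0.48, SE 0.19, FDR 0.167) and overlapped with vehicle, and Tgfbr2 at 18.5, 18.4, 18.8, 21.3 and 21.9 CPM (log2 fold change 0.07, SE 0.09, FDR 0.711).

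No collagen of the fibril was called in old females. Col1a1 was at 23.1, 14.1, 22.5, 27.2 and 18.2 CPM with HDM201 (log2 fold change 0.28, SE 0.21, FDR 0.464), Col1a2 at 22.7, 14.7, 19.4, 25.9 and 19.1 CPM (log2 fold change 0.03, SE 0.19, FDR 0.95) and Col3a1 at 32.8, 26.4, 28.8, 45.8 and 29.9 CPM (log2 fold change 0.03, SE 0.17, FDR 0.949). For Col1a2 and Col3a1 the sign turned when single mice were left out. Col4a1 was at 28.9, 23.7, 26.4, 32.7 and 28.2 CPM (log2 fold change 0.20, SE 0.10, FDR 0.243). Neither Ccn2 (log2 fold change -0.24, SE 0.23, FDR 0.584) nor Acta2 (log2 fold change -0.13, SE 0.31, FDR 0.845) was called. Of the genes that had separated old from young females, Mmp14 was at 109, 85.5, 96, 94.8 and 74.9 CPM with HDM201 (log2 fold change 0.08), Tgfbi at 54.3, 42.2, 56.5, 58.8 and 58.3 CPM (-0.06) and Postn at 5.78, 4.64, 4.9, 10.2 and 6.32 CPM (0.04). Ecm1 was at 165, 140.5, 142, 168 and 154 CPM (-0.14).

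Marker lists of other cell types did differ with HDM201 in old females. 8 of 9 macrophage markers were called lower, and their sum was 319 to 626 CPM with vehicle and 193 to 311 CPM with HDM201. Bile duct cell markers summed to 50.0 to 71.8 CPM with vehicle and 84.1 to 148 CPM with HDM201, with 2 called higher. Smooth muscle markers summed to 280.0 to 324 and 356 to 395 CPM, again without overlap, and of 5 tested 1 was called higher. Acta2, which smooth muscle also expresses, overlapped, at 1.59 to 4.09 CPM with vehicle and 1.59 to 3.00 CPM with HDM201. Whether the sum measures these cells was not tested. Stellate cell markers overlapped, 185 to 246 and 207 to 247 CPM, and none of 16 was called. The part of these markers in the values of Tgfb1, which macrophages also express, and of the other genes was not tested.

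In old males, edgeR called none of the 43 genes with HDM201. 10 had an unadjusted p under 0.05 and all 10 were higher with HDM201, against 5.78% of all genes that were higher at that p, and DESeq2 called 3, Col4a1, Col4a2 and Mmp14. The median log2 fold change was 0.36 against 0.01 over all genes, and 38 of 43 were above 0, against 52.8%. With old vehicle male 1 added in FPKM, the median was 0.02 on the log2(FPKM + 1) scale, and 0.35 without the mice that lack counts.

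The basement membrane collagens had the smallest p-values. Col4a1 was read at 22.1, 17.8, 16.3 and 12.8 CPM in the 4 old vehicle males and 24.2, 29.4, 34.3, 25.9 and 26.1 CPM in the 5 old HDM201 males, without overlap (log2 fold change 0.70, SE 0.15, FDR 0.196; unadjusted p 0.000801). Col4a2, its partner chain, was at 11.9 ± 2.53 and 19.4 ± 2.85 CPM (SD, n = 4 and 5), also without overlap (log2 fold change 0.71, SE 0.16, FDR 0.196). These were the 2 genes of 43 in which the groups did not overlap, against 4.03% of all genes. The 2 genes lie head to head, Col4a1 at chr8:11198423-11312826 on the minus strand and Col4a2 at chr8:11312805-11449287 on the plus strand. Their annotated 5′ ends overlap at chr8:11312805-11312826, and how reads there were counted is not known. Mmp14 was at 51.7, 83.1, 61.2, 61.8 and 66.2 CPM with HDM201 (log2 fold change 0.59, SE 0.15, FDR 0.231), where 1 treated mouse lay within the vehicle range. Col6a2, Pdgfrb and Sparc followed, with log2 fold changes of 0.76, 0.59 and 0.42, each at an FDR of 0.276.

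Type I and III collagens were higher on average and overlapped. Col1a1 was at 44.1, 26.8, 29, 40.0 and 19.5 CPM with HDM201 (log2 fold change 0.64, SE 0.31, FDR 0.443), Col1a2 at 37.9, 25.4, 28.2, 30.3 and 17 CPM (log2 fold change 0.43, SE 0.28, FDR 0.547) and Col3a1 at 53.1, 46.4, 44.4, 53.8 and 24.6 CPM (log2 fold change 0.43, SE 0.29, FDR 0.564). At a pseudocount of 1 all 3 turned to a log2 difference below 0 in FPKM once old vehicle male 1 was included, -0.022, -0.14 and -0.11. At a pseudocount of 0.1 Col1a1 stayed above 0, at 0.080, and the other two turned. HDM201 male 5 was lowest of the treated mice in each. That mouse was highest of them in Tgfb1, at 18.5 CPM, where the 5 treated males were at 13.6, 11.8, 13.5, 13.7 and 18.5 CPM (log2 fold change 0.26, SE 0.17, FDR 0.551).

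The receptors and targets of the pathway were not called in old males. Tgfbr2 was at 36.5, 35, 44, 51.5 and 26 CPM with HDM201 (log2 fold change -0.18, SE 0.17, FDR 0.688), where 3 of the 5 treated males lay below every vehicle male. Smad7 was at 18, 20.1, 25.7, 30.0 and 35.5 CPM (log2 fold change 0.59, SE 0.27, FDR 0.421), Ccn1 at 7.15, 6.41, 9.21, 14.7 and 15.1 CPM (log2 fold change 0.25, SE 0.28, FDR 0.739) and Tgfbi at 45, 45.8, 48.2, 62 and 43 CPM (log2 fold change 0.36). Tgfb2 at 1.06, 0.855, 0.864, 1.5 and 0.553 CPM (log2 fold change 0.58, SE 0.33, FDR 0.492) and Tgfb3 at 2.46, 1.66, 1.5, 2.79 and 1.05 CPM (log2 fold change 0.36, SE 0.31, FDR 0.656) overlapped with vehicle. The values for Ccn2 and Acta2 were log2 fold changes of -0.10 (SE 0.29, FDR 0.913) and 0.25 (SE 0.39, FDR 0.824). Postn was at 7.77, 8.07, 4.61, 5.85 and 3.48 CPM, within the span of vehicle. Ecm1 was at 115, 151, 134, 104 and 86.6 CPM, of which 151 and 134 lay above the highest vehicle male at 129 CPM. Lymphocyte markers summed to 15.8 to 27.3 CPM with vehicle and 28.7 to 83.9 CPM with HDM201, without overlap and with none called by edgeR (2 of 8 at an unadjusted p under 0.05), and their part in these values was not tested. The other marker sums overlapped, among them macrophage 127 to 406 and 182 to 474 CPM, stellate cell 126 to 258 and 151 to 279.8 CPM.

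No gene of the 43 was called for a difference between the sexes in the response to HDM201, where 0.107% of all genes were called. The old males were also older than the old females. 7 had an unadjusted p under 0.05 and 0 were called by DESeq2. Of the 43 differences 8 were above 0, against 49.8%. Their median was -0.28, and on the log2(FPKM + 1) scale it was 0.046 with the mice that lack counts and -0.32 without them. Tgfb1 was first, with -0.42 in females and 0.26 in males (difference -0.67, FDR 0.126), then Col4a1 with 0.20 and 0.70 (difference -0.50, FDR 0.159) and Mmp14 with 0.08 and 0.59 (difference -0.51, FDR 0.183).

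Within each group, many of the matrix genes were highest or lowest in the same mouse. Over the 41 genes with a mean of at least 1 CPM, old vehicle male 2 was highest of its 4 mice in 30 genes and old vehicle male 5 lowest in 27. Old vehicle female 4 was lowest of 4 in 26, HDM201 female 2 lowest of 5 in 23 and female 4 highest in 22. HDM201 male 5 was lowest of 5 in 26, and young vehicle male 1 lowest of 4 in 25 where male 4 was highest in 25. Young vehicle female 1 was lowest of 5 in 23. These genes share libraries and cells, so their counts within a mouse are not independent of each other. The same ranks were not counted over all genes, so it is not known whether these runs are particular to the matrix genes.

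Col5a2, a type V collagen chain that was singled out after its values were seen, was read at 55.7 CPM in old vehicle male 2 and 30.5 CPM in HDM201 male 4, and at 1.59 to 6.2 CPM in the other 25 mice. Its neighbour Col3a1, at chr1:45311538-45349706 on the plus strand, was at 48.3 and 53.8 CPM in those 2 mice, the latter the highest of the 27 and next to 53.1 CPM in HDM201 male 1. Col5a2 lies at chr1:45374321-45503282 on the minus strand. In males its log2 fold change with age was 2.27 (SE 1.02, FDR 0.226).

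Other genes of the same pathways were counted from lists of 16 kinds, of which the members are no part. With age, 31.8% of all genes were called in females (16.8% higher, 15% lower) and 3.69% in males (2.76% higher). With HDM201 the shares were 5.25% in old females and 0.00709% in old males. Between the young sexes 10.5% were called, 5.63% being higher in females. Of 20 genes for collagen processing and crosslinking, 10 were higher and 1 lower with age in females, 2 and 1 in males. Tgm2, a transglutaminase, had a log2 fold change of 0.97 (SE 0.11, FDR 0.000124) in females, Loxl4 of 2.52 (SE 0.42, FDR 0.000938), and Pcolce, which enhances procollagen cleavage, of 1.07 (SE 0.17, FDR 0.0116) in males. In males Tgm2 was at 0.40 (SE 0.21, FDR 0.299) and Loxl4 at -1.13 (SE 0.57, FDR 0.281), neither being called. For sex by age 2 of the 20 were called, with the higher value in females, against 3.92% of all genes. With HDM201 in old females 2 were higher and 3 lower, among them the lysyl hydroxylase Plod1 at -0.42 (SE 0.06, FDR 0.0083) and the prolyl hydroxylase P4ha1 at -0.61 (SE 0.12, FDR 0.0206). P4ha1 had been higher with age in both sexes, at 0.62 (SE 0.13, FDR 0.00281) in females and 0.73 (SE 0.13, FDR 0.0169) in males. In old males 0 of 20 were called with HDM201 by edgeR, with 5 at an unadjusted p under 0.05, and 1 differed between the young sexes.

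Of 12 other collagen genes tested in females, 4 were higher with age, where 16.8% of all genes were called higher and 31.8% in either direction. They were led by Col15a1 of the basement membrane zone at 1.38 (SE 0.19, FDR 0.000308). In males 1 of 13 was higher (2.76% of all genes), Col4a4 at 2.03 (SE 0.45, FDR 0.039). Col5a3 and Col27a1 were lower in young females than in young males, Col5a3 by -2.16 (SE 0.28, FDR 0.000604). Col27a1 was the 1 of 14 called with HDM201 in old females, at -1.04 (SE 0.21, FDR 0.0198). Of 27 basement membrane and matricellular genes, 8 were higher with age in females and 5 in males, Emilin1, an elastic fibre glycoprotein, in both, at 0.89 (SE 0.13, FDR 0.000388) and 0.86 (SE 0.13, FDR 0.0102). The laminin-binding gene Nid1 rose in females (1.01 (SE 0.16, FDR 0.000804)) and tenascin C, Tnc, in males (2.38 (SE 0.43, FDR 0.0207)). Osteopontin, Spp1, was the 1 of 27 called with HDM201 in old females (0.93 (SE 0.16, FDR 0.0104)), and 4 of 27 were higher in young females than males.

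Of 12 matrix protease genes tested, 6 were higher with age in females, led by Mmp9 at 1.71 (SE 0.36, FDR 0.00367). Of all genes, 16.8% were called higher there and 15% lower. In males 2 were higher and 1 lower, Mmp12, macrophage elastase, at 3.66 (SE 0.62, FDR 0.0152) and Mmp19 at -0.53 (SE 0.09, FDR 0.0156). None was called with HDM201 by edgeR in either sex (3 of 15 and 3 of 14 at an unadjusted p under 0.05) nor between the young sexes. Of 30 other TGF-beta pathway genes, 12 were higher and 2 lower with age in females, among them the integrin subunit Itgb5 (0.65 (SE 0.08, FDR 0.000185)), the SMAD corepressor Ski (0.95 (SE 0.15, FDR 0.000606)) and the target gene Id3 (1.18 (SE 0.21, FDR 0.00136)). In males Itgb5 was the 1 of 29 called (0.46 (SE 0.11, FDR 0.0497)). Between the young sexes 2 were higher and 4 lower in females. Id2 and Id3 were lower, by -0.84 (SE 0.13, FDR 0.00161) and -0.75 (SE 0.18, FDR 0.0218), and the coreceptor Tgfbr3 was higher (0.78 (SE 0.18, FDR 0.0178)). None of 30 was called with HDM201 by edgeR in either sex, with 9 in each at an unadjusted p under 0.05.

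Marker lists of other liver cells gave the following calls, with none in any list for HDM201 in old males. The shares of all genes called are those given above for the pathway lists. For portal fibroblasts 3 of 7 tested were higher with age in females and 0 in males, and Thy1, at 1.04 (SE 0.25, FDR 0.00689) with age, was lower with HDM201 in old females (-0.72 (SE 0.17, FDR 0.037)). For smooth muscle 1 was higher and 1 lower with age in females and 1 was higher with HDM201, and for mesothelium Wt1 was the 1 of 5 higher with age in females. Bile duct cell markers were higher with age in 2 genes in females and 1 in males, Sox9 and Spp1 in females. Monocyte and dendritic cell markers rose with age in both sexes, in all 5 tested in females and all 3 in males, Itgax by 2.39 (SE 0.26, FDR 8.54e-05) in females and 2.23 (SE 0.42, FDR 0.023) in males. Lymphocyte markers did so in 6 of 8 and 4 of 5 tested, the plasma cell gene Jchain by 3.13 (SE 0.20, FDR 2.48e-06) and 2.77 (SE 0.28, FDR 0.00177). 1 of 8 lymphocyte markers was lower with HDM201 in old females. Of sinusoidal endothelial markers 4 of 8 were higher in young females than young males, 1 was lower with HDM201 in old females, and Lyve1 was lower (-0.88 (SE 0.17, FDR 0.00195)) and Cdh5 higher (0.54 (SE 0.12, FDR 0.00451)) with age in females, and of hepatocyte markers 1 of 8, Cps1, was lower with age in females and 1, Hnf4a, with HDM201. Of pancreas and adipose markers, where 2 of 7 were tested, both of these were lower with age in females, and none was called in males.

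**Figure D5:**
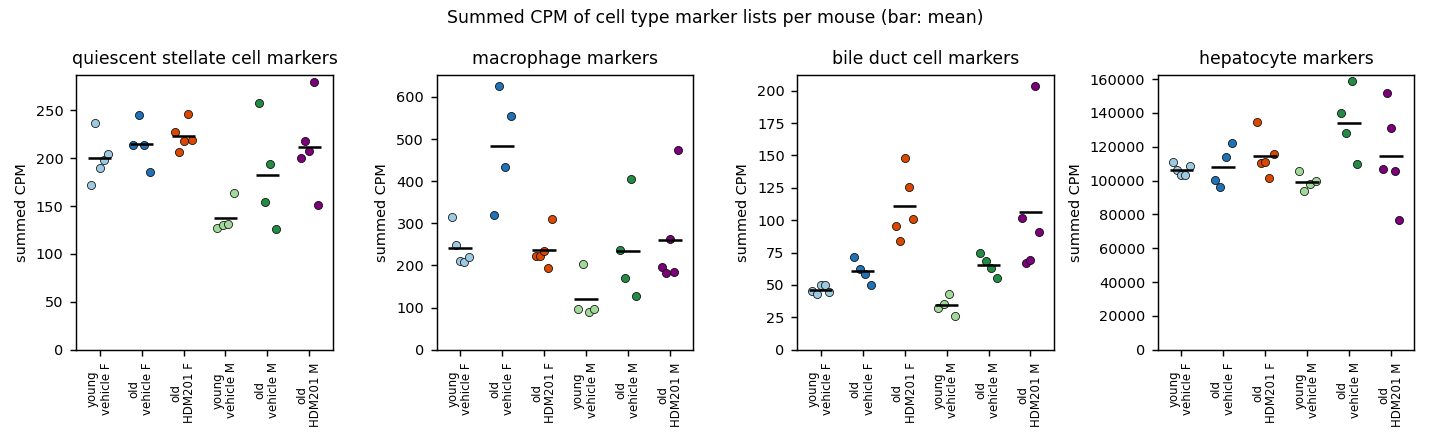
Summed CPM per mouse of the marker lists of quiescent stellate cells, macrophages, bile duct cells and hepatocytes in the 6 groups, with the mean (bar). Macrophage sums were 319 to 626 CPM in old vehicle females and 193 to 311 with HDM201, while stellate cell sums overlapped between those groups.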

How the data were processed

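Whole mouse liver was profiled by RNA-seq. The authors aligned the reads to mm10 with the STAR 2-pass pipeline and filtered them with SAMtools. Raw counts per gene came from HTSeq, were deposited without normalization and cover 27 mice. FPKM values, scaled to transcript length and library size, were made by the authors with Cufflinks and cover 29 mice. They contain empty cells, 94.8% of which belong to a count of 0 in mice with counts, and these were read as 0. Whether counting used the strand, and which annotation and tool versions were used, is not given in the sources used here, so overlapping and antisense genes are uncertain. The ages in the study's methods differ slightly from the labels, which were followed.

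The 44 genes and the 16 other lists (211 distinct genes, all found) were chosen with earlier results of these data known. Counts were filtered with edgeR 4.0.16 (filterByExpr, minimum count 10, minimum total 15), scaled by TMM, and tested with the quasi-likelihood test (R 4.3.3) on the groups of each comparison, with Benjamini-Hochberg adjustment over all genes tested and a threshold of 0.05. The written design took 5 mice per male group, and the old and young vehicle males have 4 with counts. The SE of a fold change was its size divided by the square root of F. CPM used 1 set of TMM factors over the 27 mice. DESeq2 1.42.0 and limma 3.58.1, the latter on log2(FPKM + 1) and log2(FPKM + 0.1) with a mean of at least 0.1 FPKM, were alternatives, as were RLE factors, no filter, 1 fit of all 6 groups, a replicate block, a threshold of 0.01, and 79 fits without 1 mouse. FPKM fits without the 2 mice that lack counts were added after seeing the data. The edgeR step was tested on simulated counts. No same-numbered pairing was assumed, and no pair of replicates agreed within sampling noise (lowest chi-square per degree of freedom 14.4).

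All 44 genes were named. Fold change, SE and FDR were given for up to 12 called genes of smallest FDR per comparison and for 12 key genes, and values of every mouse for 14 genes. Positions came from GENCODE vM21 by gene ID and upstream windows from RefSeq (GRCm38.p6).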

Additional observations from a re-analysis of the deposited data

Results flagged for a closer look

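8 values of single mice lay far from the rest of their group, by the gap to the nearest mouse as a share of the group's range. Chance gives such a gap in about 1 in 20 groups, and 15 genes were examined in 6 groups. Col5a2 was added to them after its values were seen, so its gaps cannot be set against that rate. The other genes were picked by small FDR. Col5a2 was at 55.7 CPM in old vehicle male 2, where the next of its group was at 2.97, and at 30.5 CPM in old HDM201 male 4, where the next was at 6.20. Col3a1 was at 11.2 CPM in young vehicle female 1, below the next at 26.3. Postn was at 14.7 CPM in young vehicle female 2, above the next at 10.2. Tgfbi was at 42.2 CPM in old HDM201 female 2, below the next at 54.3, and at 62.0 CPM in old HDM201 male 4, above the next at 48.2. Tgfb1 was at 18.5 CPM in old HDM201 male 5, above the next at 13.7. Ccn1 was at 15.9 CPM in old vehicle female 1, above the next at 10.1.

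The change of Mmp14 with age differed between the sexes, by an interaction of 0.93 on the log2 scale (edgeR FDR 0.0233), and the difference was no longer called without old vehicle female 4 or old vehicle male 4. The old females were younger than the old males, so sex and the age reached cannot be told apart.

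The 2 mice outside the count table held signals that no count-based comparison contains. In old vehicle male 1, Col1a1 was at 35.8 FPKM and Col3a1 at 81.3 FPKM, and 30 of 43 genes were higher than in any other mouse. In young vehicle male 5, Col4a1 was at 10.3 FPKM and Mmp14 at 32.8 FPKM, 2 genes named after their values were seen. The depth of either mouse is unknown.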

How the results depend on the processing

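The counts of called genes moved with the fit. With age in females the 15 calls became 9 at an FDR of 0.01, and 11 to 17 under the other alternatives. DESeq2 also gave 15, with Col1a2 in place of Col1a1. With age in males the 7 calls became 15 with DESeq2, 15 with no filter, 16 with all 6 groups in 1 fit, 1 at an FDR of 0.01, 0 and 0 with limma on log2(FPKM + 1) and log2(FPKM + 0.1), and 2 and 2 in these fits without the mice that lack counts. With HDM201 the calls were 2 (DESeq2) and 1 (no filter) in old females, and 3 (DESeq2) in old males. Between the young sexes the 9 calls became 15 with all groups, 5 at an FDR of 0.01, and 5 and 5 with the FPKM fits (7 and 7 without the mice that lack counts). For sex by age the 1 call became 3 with DESeq2, 3 with no filter, 2 with all groups, 0 at an FDR of 0.01, and 0 and 0 with the FPKM fits (1 and 1 without those mice). For sex by HDM201 every alternative gave 0. Leave-one-out fits gave 12 to 17 calls with age in females, 1 to 10 in males, 0 to 1 for HDM201 in old females, 0 in old males, 7 to 10 between the young sexes and 0 to 2 for sex by age. The median for sex by HDM201 turned from -0.28 to 0.046 with log2(FPKM + 1), and was -0.32 there without the mice that lack counts, so that the sign turned with those mice included. For the other changes the cause was not tested.

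Same-numbered mice did not deviate together: over 19 pairs the correlations ran from -0.23 to 0.24, and in 5 pairs each mouse correlated best with its own number, so the numbers were not taken to pair mice. The replicate block gave 13 calls with age in females, 0 in males, 6 between the young sexes and 0 for sex by age, and turned Acta2 to -0.030 (age in males) and 0.065 (young sexes), and Ccn2 to 0.029 (HDM201 in old males).

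None of the log2 fold changes that turned sign was called. In FPKM with pseudocounts of 1 and 0.1 they were, with age, Tgfbr2 in females (0.11, 0.16) and Ccn2 in males (0.015, 0.044). With HDM201 in old males they were, at a pseudocount of 1, Col1a1 -0.022, Col1a2 -0.14, Col3a1 -0.11, Tgfb1 -0.026, Tgfb2 -0.16, Ccn1 -0.036, Ccn2 0.065, and at 0.1, Col1a2 -0.086, Col3a1 -0.070, Tgfb1 -0.0065, Tgfb2 -0.40, Ccn1 -0.034, Ccn2 0.083. Without the mice that lack counts only Tgfb2 (-0.072, -0.13) and Ccn2 (0.088, 0.11) still turned there. Between the young sexes they were Col1a1 -0.088, Col4a1 -0.073, Ccn2 0.20 at 1, Col1a1 -0.13, Col4a1 -0.053, Ccn2 0.28 at 0.1, and Acta2 0.0057 without the mice. Leave-one-out ranges that crossed 0 were, with age in females, Tgfbr2 -0.23 to 0.051, Acta2 -0.20 to 0.36, Col4a1 -0.0027 to 0.23. In males they were Acta2 -0.29 to 0.66, Col4a1 -0.087 to 0.19, Ccn2 -0.72 to 0.052. With HDM201 they were Tgfbr2 -0.0049 to 0.13, Col3a1 -0.13 to 0.15, Acta2 -0.28 to 0.29, Col1a2 -0.13 to 0.15 in females and Ccn2 -0.26 to 0.27, Acta2 -0.11 to 0.59 in males, and between the young sexes Col1a1 -0.18 to 0.46, Tgfbr2 -0.32 to 0.042, Acta2 -0.56 to 0.39, Ccn2 -0.46 to 0.19, Smad7 -0.012 to 0.17. Depth limited Lox, at 0 to 23 counts per mouse, and Timp1, at 0 to 40.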
